A study of Homo sapiens with 17 samples.

Results

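KITLG and KIT encode a ligand and its receptor: KITLG is the stem cell factor, and KIT is the tyrosine kinase that it activates. These 2 genes were looked up by symbol among the 60199 genes of the deposited RNA count table and in the deposited peak lists of 2 histone marks. They were chosen as a pair because of how KITLG RNA differed between UTX knockout and wild-type neurons, so their levels in that comparison are given as a description, without a test.

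The study asked how UTX (gene symbol KDM6A), a demethylase of lysine 27 on histone H3, acts in human neural differentiation and dendrite shape. RNA was sequenced at day 40 from neurons of H9, an established human embryonic stem cell line at passage P40: 3 libraries of genotype wild type (WT), 3 of knockout line KO1 and 2 of knockout line KO2, both knockout lines (KO) having the genotype UTX-/-. All cultures passed through embryoid bodies and hand-picked neural rosettes and ended in a medium with BDNF, GDNF, a cyclic AMP analogue and ascorbic acid. The submitters describe the RNA replicates as biological and the ChIP as done 1 time. The labels name neither the edited position, nor whether a KO line is 1 clone, nor whether replicates were separate differentiations, so any p-value measures only the spread between these libraries.

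KIT ligand is made as a membrane-anchored protein that proteases can release, and it pairs KIT molecules at the surface of a neighbouring cell. KIT then phosphorylates itself and recruits adaptors and kinases of the RAS, PI3-kinase and STAT pathways. The pair is best known in blood stem cells, mast cells, melanocytes, germ cells and the pacemaker cells of the gut. In the nervous system both neurons and glia can make the ligand, and KIT is found on some neurons and progenitors.

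KITLG lies on the minus strand of chromosome 12 from 88492793 to 88580471 (GRCh38, 87.7 kb, 2 RefSeq transcripts). KIT lies on the plus strand of chromosome 4 from 54657957 to 54740715 (82.8 kb, 8 RefSeq transcripts). The counts are per gene, so they do not separate the transcripts that encode the soluble and the anchored ligand. The 250 bases before each start site are printed here because both peak lists of H3K27me3, the mark that UTX removes, covered this stretch at KIT and neither did at KITLG. The sequences are from RefSeq (GRCh38.p14), chr12:88580472-88580721 on the minus strand and chr4:54657707-54657956 on the plus strand, 5′ to 3′, with matches to TATAAA and GGGCGG on either strand in capitals.
KITLG: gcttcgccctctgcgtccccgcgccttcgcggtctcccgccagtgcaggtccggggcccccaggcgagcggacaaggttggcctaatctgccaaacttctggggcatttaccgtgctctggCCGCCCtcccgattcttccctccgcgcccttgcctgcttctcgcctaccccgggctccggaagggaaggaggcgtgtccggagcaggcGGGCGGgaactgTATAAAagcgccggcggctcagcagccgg
KIT: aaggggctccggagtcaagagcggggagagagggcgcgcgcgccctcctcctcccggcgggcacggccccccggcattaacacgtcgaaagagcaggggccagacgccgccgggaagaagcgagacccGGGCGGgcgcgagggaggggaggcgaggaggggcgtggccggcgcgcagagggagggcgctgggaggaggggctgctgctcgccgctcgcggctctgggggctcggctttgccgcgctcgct

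The KIT stretch held 34 CpG dinucleotides and the KITLG stretch 26, against a median of 11 over the 35116 promoters in the RefSeq table. Their GC contents were 76.4% and 69.2%, against a median of 58%. TATAAA, the core of a TATA box, occurred once in the KITLG stretch, 29 to 24 bases before the start site, and was not found in these letters at KIT. It occurred in 10.7% of all promoters. GGGCGG, a GC box, occurred 2 times at KITLG and 1 time at KIT (42.6% of all promoters hold it). The CCAAT box (CCAAT), the E-box (CACGTG) and a GATA motif (AGATAA) were not found in these letters of either stretch on either strand, and occurred in 32%, 6.34% and 9.17% of all promoters. No matches overlapped.

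Library totals ranged from 17.4 M to 31.5 M estimated counts (M for mega), and levels are given in CPM, counts scaled by library total and TMM factor. KO1 replicate 2 and both KO2 libraries stood apart from the other 5 by their RNA of connective tissue genes: COL1A1, a fibrillar collagen chain, was at 27544, 9226 and 14456 CPM there and between 7.65 and 387.1 CPM elsewhere. They are called the high-collagen libraries below, and the KO against WT values of KITLG, KIT and the pathway lists are also given without them. KO2 against KO1 could not be fitted without them, because both KO2 libraries are among them. The 10 mesenchymal markers summed to 110.9 to 1621 CPM in WT, 706.1 to 883.6 CPM in KO1 replicates 1 and 3, and 23446 to 62986 CPM in the high-collagen libraries. The 10 neuron markers, led by MAP2 and TUBB3, cytoskeletal proteins of neurons, were present in every library and summed to 3533 to 5084 CPM in WT, 3742 to 4650 CPM in KO1 replicates 1 and 3, and 717.8 to 2299 CPM in the high-collagen libraries. In such bulk samples, fewer cells of a type and less RNA per cell cannot be told apart.

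KITLG RNA, that of the ligand, was measured at 28.7, 26.4 and 18.3 CPM in WT replicates 1 to 3. It was at 71.6, 75.9 and 51.5 CPM in the KO1 replicates and at 64.3 and 54.3 CPM in the KO2 replicates. All 5 KO libraries thus lay above all 3 WT libraries, with the lowest KO library at 51.5 CPM and the highest WT library at 28.7 CPM. KITLG averaged 24.4 ± 5.46 CPM over the WT libraries (SD, n = 3) and 63.5 ± 10.6 CPM over the KO libraries (SD, n = 5), 2.6-fold higher. Of the 18614 genes tested, 6.29% had all 5 KO libraries above all 3 WT libraries. This percentage is given as the background of a comparison that was used in choosing the gene.

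**Figure D1:**
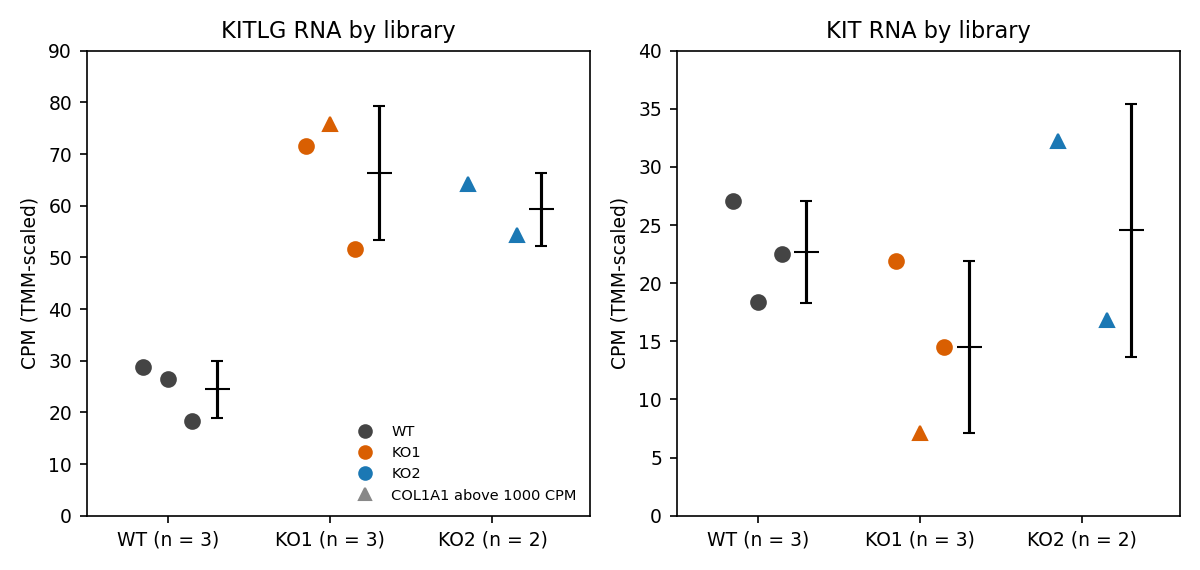
TMM-scaled CPM (y axis) of KITLG (left) and KIT (right) in each library, grouped by line on the x axis, with the mean and SD of each line as black bars and the high-collagen libraries as triangles. The KITLG points of KO1 and KO2, 51.5 to 75.9 CPM, all lie above the WT points, while the KIT points of KO, 7.13 to 32.3 CPM, spread to both sides of WT.

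Both knockout lines showed this level of KITLG. The KO1 mean was 66.3 ± 13.0 CPM (SD, n = 3) and the KO2 mean 59.3 ± 7.05 CPM (SD, n = 2), 2.71-fold and 2.43-fold above WT. The order of the means was WT, KO2 and KO1, and the ranges of KO2 and KO1 overlapped. The difference between the KO lines, which the choice of the gene did not use, was -0.16 on the log2 scale (KO2 minus KO1) with an unadjusted p of 0.537 and an FDR (Benjamini-Hochberg adjusted p) of 1.00 by edgeR's quasi-likelihood test. That test called 0 of 19440 genes between the lines (0%), and 2.24% had an unadjusted p under 0.05.

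KITLG was as high in the KO libraries with little collagen RNA as in the others. KO1 replicates 1 and 3 had a mean of 61.5 CPM, 2.52-fold above WT, and the 3 high-collagen libraries a mean of 64.8 CPM. The fitted log2 difference between KO and WT was 1.38 over all libraries and 1.33 without the high-collagen libraries. WT replicate 3 had the most mesenchymal marker RNA of the WT libraries (1621 CPM) and the least KITLG RNA (18.3 CPM). KO1 replicate 2 had the most of both over all libraries, 62986 CPM of marker RNA and 75.9 CPM of KITLG. The part of mesenchymal cells in the KITLG values was not tested. The authors' deposited table gives KITLG a log2 fold change of 1.39 with an SE of 0.231.

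The sums of several marker lists of other cell types were ordered by genotype like KITLG or opposite to it. The part of such cells in the KITLG values was not tested. The 6 pacemaker and smooth muscle markers, led by TAGLN and ACTA2, summed to 12.1 to 41.5 CPM in WT, 80.5 to 483.7 CPM in KO1 replicates 1 and 3, and 855.5 to 1229 CPM in the high-collagen libraries. DESeq2 called 4 of 5 tested members higher, and 2 without the high-collagen libraries, where it called 4.83% and 0.877% of all genes higher. The 8 endothelial markers, led by KDR and FLT1, summed to 5.11 to 5.42, 7.72 to 30.5 and 30.4 to 101.3 CPM, and the 8 epithelial markers, led by KRT18 and KRT8, to 12.0 to 21.3, 23.7 to 61.6 and 61.1 to 531.4 CPM. DESeq2 called 1 of 5 endothelial and 3 of 6 epithelial members higher, and 1 of each list without the high-collagen libraries. It gave no adjusted p for KRT18. edgeR called 0 members of these 3 lists, as it called 0 of all 18614 genes (0%). At an unadjusted edgeR p under 0.05, 4 smooth muscle, 1 endothelial and 4 epithelial markers were higher. Of all genes, 11.5% were higher at this p. For the sums of all 3 lists every KO library lay above the WT range, as it did for KITLG. Among single tested members this held for 3 of 5 smooth muscle, 1 of 5 endothelial and 3 of 6 epithelial markers. It held for 6.29% of all genes. The mesenchymal list, led by COL1A1 and COL1A2, did not share this order: KO1 replicates 1 and 3 lay inside its WT range. The sum of the 9 neural progenitor markers, led by NES and NOTCH1, had the opposite order, with every KO library below the WT range: it was 2626 to 2939 CPM in WT, 2464 to 2510 CPM in KO1 replicates 1 and 3, and 421.2 to 1252 CPM in the high-collagen libraries. For 4 of the 9 all KO libraries lay below WT, against 6.16% of all genes. DESeq2 called none of the 9 over all libraries, and 1, SOX3, lower without the high-collagen libraries (adjusted p = 0.000316, against 0.0931 with them). Of all genes it called 1.16% lower, and 0.55% without the high-collagen libraries. edgeR called 0 of the 9, with 2 lower at an unadjusted p under 0.05, against 6.45% of all genes. SOX3 is named here after its values were seen.

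KIT RNA, that of the receptor, was measured at 27.1, 18.4 and 22.5 CPM in WT replicates 1 to 3. It was at 21.9, 7.13 and 14.5 CPM in the KO1 replicates and at 32.3 and 16.8 CPM in the KO2 replicates. The groups overlapped: the highest value was in KO2 replicate 1, the lowest in KO1 replicate 2, and KO1 replicate 1 lay inside the WT range. KIT averaged 22.7 ± 4.37 CPM over the WT libraries (SD, n = 3) and 18.5 ± 9.34 CPM over the KO libraries (SD, n = 5). Of the genes tested, 87.5% overlapped between KO and WT in this way.

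The KO libraries varied more in KIT than in KITLG. Their SD was 50.4% of the mean for KIT and 16.6% for KITLG, while in WT these shares were 19.3% and 22.3%. The counts behind the values were 341 to 1755 for KITLG and 127 to 720 for KIT, so that the counting error of a single library was at most 5.42% for KITLG and 8.87% for KIT. The KIT means were 14.5 ± 7.40 CPM in KO1 (SD, n = 3) and 24.5 ± 10.9 CPM in KO2 (SD, n = 2), which placed WT between the lines. KO2 exceeded KO1 by 0.75 on the log2 scale, a difference that edgeR's quasi-likelihood test did not call (unadjusted p = 0.153, FDR = 1.00).

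The fitted log2 difference of KIT between KO and WT was -0.29, and -0.31 without the high-collagen libraries. It was -0.08 without KO1 replicate 2 and -0.57 without KO2 replicate 1. The authors' deposited table gives -0.28 with an SE of 0.442. Within a library, the ratio of KITLG to KIT counts was 1.06, 1.43 and 0.812 in the WT replicates, 3.26, 10.6 and 3.55 for KO1, and 1.99 and 3.22 for KO2. The counts are not divided by transcript length, so this ratio can be read between libraries but not as a ratio of molecules.

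**Figure D2:**
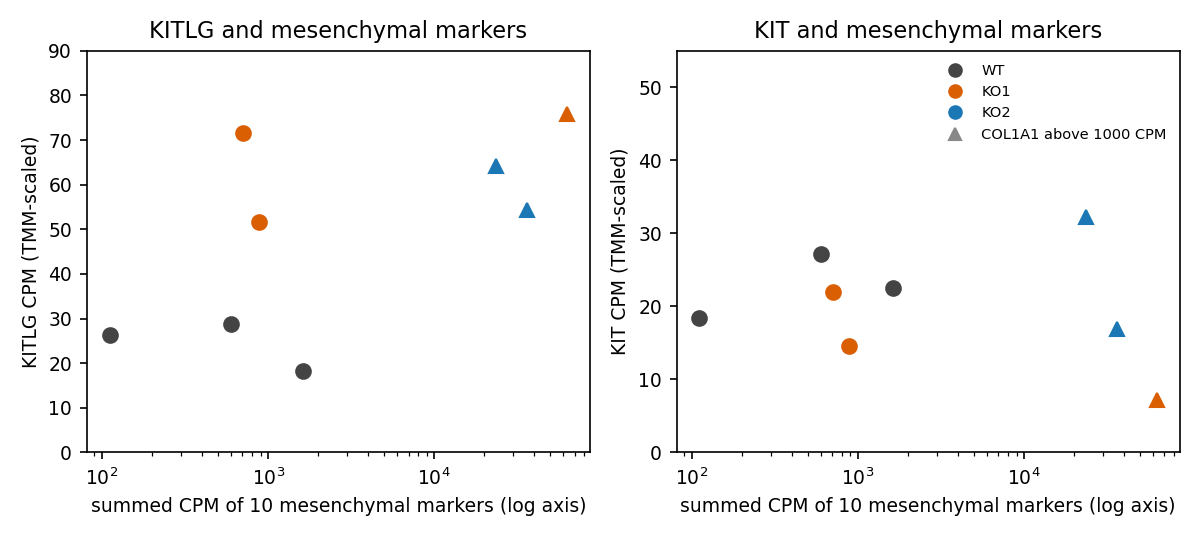
TMM-scaled CPM of KITLG (left) and KIT (right) on the y axes against the summed CPM of 10 mesenchymal markers (log axis) in each of the 8 libraries, with the high-collagen libraries as triangles. KITLG stands at 51.5 to 75.9 CPM in KO libraries on both sides of the gap in marker RNA. KIT is lowest, at 7.13 CPM, in the library with the most marker RNA, 62986 CPM. It is highest, at 32.3 CPM, in KO2 replicate 1, also a high-collagen library, with 23446 CPM of marker RNA.

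The 2 genes differed in called H3K27me3 peaks but not in H3K36me3, of which neither had a peak. At KIT, the WT list of H3K27me3 held 4 peaks. The strongest ran from 782 bases before to 89 bases after the start site (chromosome 4, 54657175 to 54658046), with its summit 499 bases before the start and a fold of 8.36 over the control. The other 3 lay between 341 and 2415 bases after the start, at 54658298 to 54658645, 54659088 to 54659422 and 54660083 to 54660372, with folds of 3.58, 3.83 and 4.28. The KO list held 1 peak, from 1388 bases before to 509 bases after the start (54656569 to 54658466), with its summit 491 bases before the start and a fold of 7.81. The fold values are the authors' own.

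**Figure D3:**
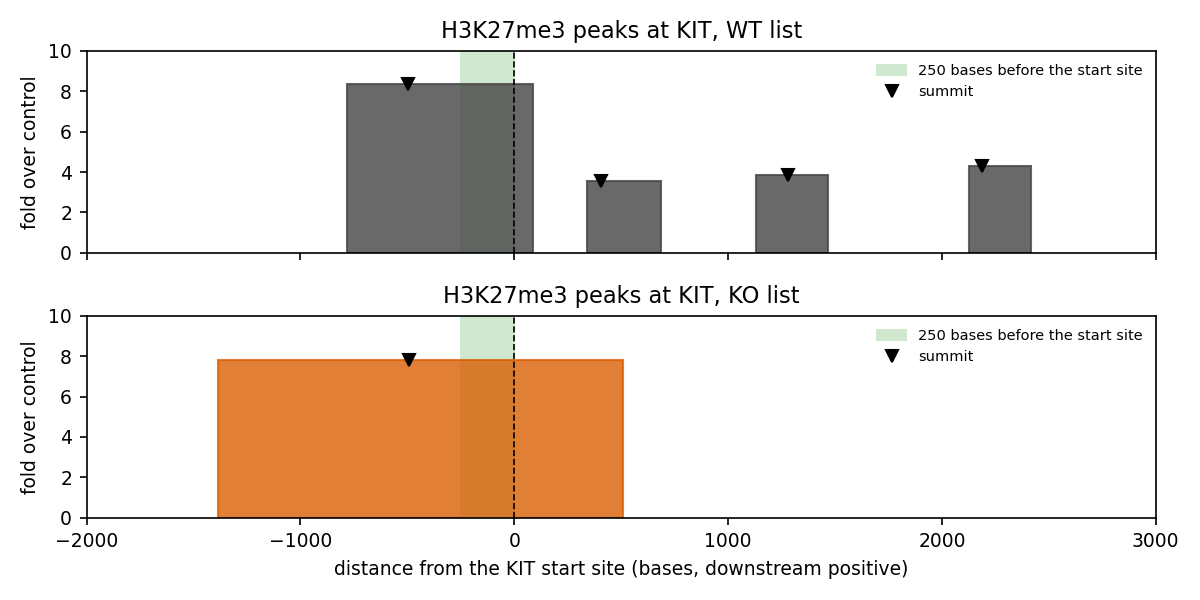
H3K27me3 peaks at KIT in the WT list (top) and the KO list (bottom), drawn to scale by distance from the start site on the x axis in bases, with the authors' fold over control on the y axis, summits as triangles and the 250 bases before the start site shaded. The summits of the strongest WT peak and of the KO peak lie 499 and 491 bases before the start site, and the 3 weaker WT peaks lie inside the gene.

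The strongest WT peak and the KO peak thus had summits 8 bases apart, and both covered the whole KIT sequence printed above. The peaks covered 1845 bp in WT and 1898 bp in KO, and 1041 bp were in both lists, 56.4% of the WT bases and 54.8% of the KO bases. The strongest WT peak ranked 2151 of 10340 peaks by fold and the KO peak 1888 of 10950. Among 12418 tested genes with a known start site, 11.5% had an H3K27me3 peak within 2 kb of it in both lists. The KO list was called from 37.6 M tags and the WT list from 22.4 M, and with 1 list per mark and genotype no peak difference has a replicate check.

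KITLG had no H3K27me3 peak within the gene or 2 kb of it in either list, which was also the case for 78.7% of the 15736 tested genes with a known position. Its nearest such peak in the WT list lay 774 kb upstream, and in the KO list 3210 kb downstream. H3K36me3, a mark laid down over the bodies of transcribed genes, was not called at KITLG or KIT in either list. No H3K36me3 peak in either list was the case for 51.1% of genes, and 35% had no peak of either mark in any list. The 2.6-fold difference of KITLG between KO and WT thus stood beside no called peak of either mark in either list. The H3K36me3 lists held 30144 peaks in WT and 8937 in KO, and fewer tested genes had a peak of this mark in KO (25.3%) than in WT (46.4%).

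The genes around KIT include 2 related receptors. PDGFRA, a platelet-derived growth factor receptor 360 kb upstream of KIT, was at 9.52, 3.15 and 24.6 CPM in WT, 11.8, 200.6 and 7.31 CPM in KO1, and 75.0 and 174.2 CPM in KO2. It was high in the high-collagen libraries only, and carried 8286 bp of H3K27me3 peaks in WT and 4928 bp in KO. KDR, a VEGF receptor of endothelial cells 338 kb downstream, was at 0.811, 0.926 and 1.66 CPM in WT, 18.1, 42.5 and 1.91 CPM in KO1, and 39.2 and 21.5 CPM in KO2. All KO libraries lay above WT for KDR, although KO1 replicate 3 did so by little. DESeq2 called KDR higher in KO (adjusted p = 4.16e-06, and 0.0107 without the high-collagen libraries), while its edgeR FDR was 0.243. edgeR called 0 of all 18614 genes. KDR had 3 H3K27me3 peaks in WT and 1 in KO, covering 2592 and 2907 bp.

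The remaining neighbours of KIT were GSX2, a homeobox factor of the ventral forebrain, CHIC2, SRD5A3, a reductase of protein glycosylation, and SRD5A3-AS1. GSX2 averaged 10.5 ± 8.94 CPM over the WT libraries (SD, n = 3) and 1.96 ± 1.74 CPM over the KO libraries (SD, n = 5), and CHIC2 8.84 ± 1.86 and 12.2 ± 1.59 CPM. H3K27me3 peaks covered 14066 bp in WT and 7500 bp in KO at GSX2, and 6899 and 4408 bp at CHIC2. SRD5A3 averaged 11 ± 2.99 and 15.3 ± 1.98 CPM, and SRD5A3-AS1, an overlapping antisense transcript whose reads may be shared with SRD5A3, 0.904 ± 0.504 and 1.30 ± 0.485 CPM. DESeq2 called none of these 4 genes, and neither did edgeR, which called 0 of all 18614 genes.

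KITLG had its 3 nearest tested genes on each side at 293 to 1650 kb, against 338 to 626 kb for KIT. Its nearest tested genes were TMTC3, an O-mannosyltransferase 293 kb downstream, CEP290, a ciliary protein, and MGAT4C on 1 side, and LINC02458, DUSP6, a phosphatase of ERK kinases, and POC1B, a centriolar protein, on the other. TMTC3 was at 33.1, 30.3 and 33.7 CPM in WT, 38.9, 78.5 and 42.5 CPM in KO1, and 53.9 and 52.4 CPM in KO2, so that all KO libraries lay above WT. DESeq2 did not call it (adjusted p = 0.0843). DUSP6, which RAS and ERK signalling induces, was at 35.7, 42.4 and 12.5 CPM in WT, 140.6, 14.6 and 76.0 CPM in KO1, and 38.9 and 27.8 CPM in KO2. Its highest values were in KO1 replicates 1 and 3. CEP290 had means of 63.5 and 57.9 CPM, MGAT4C of 7.33 and 6.97 CPM, LINC02458 of 0.264 and 0.796 CPM and POC1B of 17.2 and 14.4 CPM in WT and KO. Neither tool called any of the 6 genes, and edgeR called none of all genes tested.

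Next, 97 genes in 5 lists around the pair were described: related receptors and ligands, KIT adaptors and kinases, feedback and degradation, shedding, and regulators of both genes. Of these, 89 passed the filter on low counts. edgeR's quasi-likelihood test called 0 of them at an FDR under 0.05, as it called 0 of all 18614 genes (0%). An unadjusted p under 0.05 was found for 17.9% of all genes. Among the 89 it was found for 24 that were higher in KO and 6 that were lower, against 11.5% and 6.45% of all genes. DESeq2 called 9 higher and 1 lower, against 4.83% and 1.16% of all genes, and 3 higher without the high-collagen libraries (0.877% of all genes). All KO libraries lay above WT in 8 of the 89 and below WT in 5, against 6.29% and 6.16% of all genes. The median log2 fold change was 0.12, and -0.01 over all genes.

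**Figure D4:**
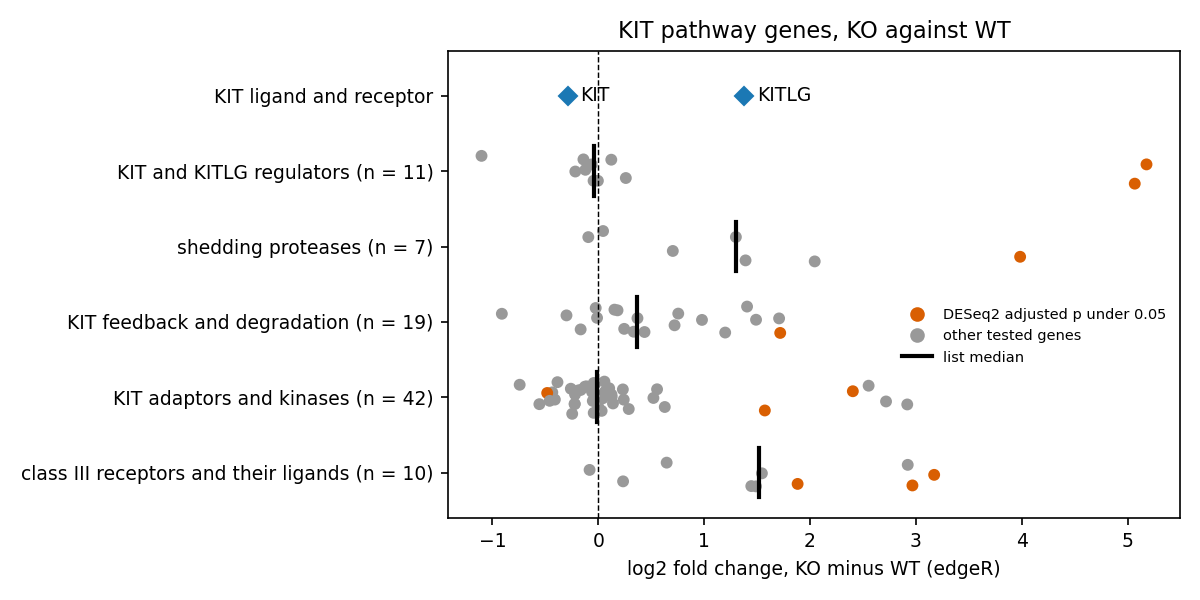
edgeR log2 fold change of KO against WT (x axis) for each tested gene of the 5 lists and for KITLG and KIT (diamonds), by list on the y axis, with list medians as black bars and genes with a DESeq2 adjusted p under 0.05 in orange. The median lies at 1.52 for the class III receptors and ligands and at -0.02 for the adaptors and kinases, and KITLG (1.38) and KIT (-0.29) lie on either side of 0.

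KIT belongs to the class III receptor tyrosine kinases, with PDGFRA, PDGFRB, CSF1R and FLT3. Of the 11 relatives and their ligands 10 were tested, and 9 had a positive fold change, as did 49.4% of all genes. The median of the 10 was 1.52, but 0.29 without the high-collagen libraries. The mesenchymal markers given above were high in the same 3 libraries, and their part in these values was not tested. PDGFRB, a receptor of pericytes and fibroblasts, was at 30.2, 5.86 and 20.9 CPM in WT, 39.1, 280.7 and 16.4 CPM in KO1, and 213.3 and 193.1 CPM in KO2. PDGFD, a PDGF receptor ligand, was at 10.6, 7.71 and 6.92 CPM in WT, 12.9, 69.6 and 13.7 CPM in KO1, and 28.5 and 30.7 CPM in KO2. PDGFB, another such ligand, was at 0.973, 0.583 and 1.5 CPM in WT, 10.4, 2.86 and 0.793 CPM in KO1, and 27.7 and 4.01 CPM in KO2. PDGFRB and PDGFD were highest in the high-collagen libraries, whereas PDGFB was also high in KO1 replicate 1. DESeq2 called these 3 genes higher (adjusted p = 0.0140, 0.0214 and 0.0180), and none of them without the high-collagen libraries (0.991, 0.318 and 0.201). Of all genes it called 4.83% higher, and 0.877% without those libraries.

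The other relatives were not called by either tool. PDGFC and PDGFA, further PDGF ligands, averaged 20.3 ± 6.22 and 2.08 ± 0.858 CPM over the WT libraries (SD, n = 3) and 59.2 ± 44.0 and 5.72 ± 3.66 CPM over the KO libraries (SD, n = 5). CSF1, a ligand of the macrophage receptor CSF1R, had means of 10.7 ± 3.82 and 30.1 ± 17.7 CPM. CSF1R itself (0.213 and 0.202 CPM, below the filter), its second ligand IL34 (0.550 and 0.520 CPM), FLT3, a receptor of blood progenitors (0.571 and 0.675 CPM), and its ligand FLT3LG (0.381 and 0.609 CPM) were all near the lower limit of detection. KITLG and PDGFD were the ligands of this class whose 5 KO libraries all lay above WT. KITLG was chosen with this comparison known, and 6.29% of all genes tested had this order. PDGFC overlapped, with KO1 replicate 1 at 25.3 CPM and WT replicate 1 at 25.6 CPM. In KO1 replicates 1 and 3 KITLG was at 71.6 and 51.5 CPM against at most 28.7 CPM in WT, and PDGFD at 12.9 and 13.7 CPM against at most 10.6 CPM.

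**Figure D5:**
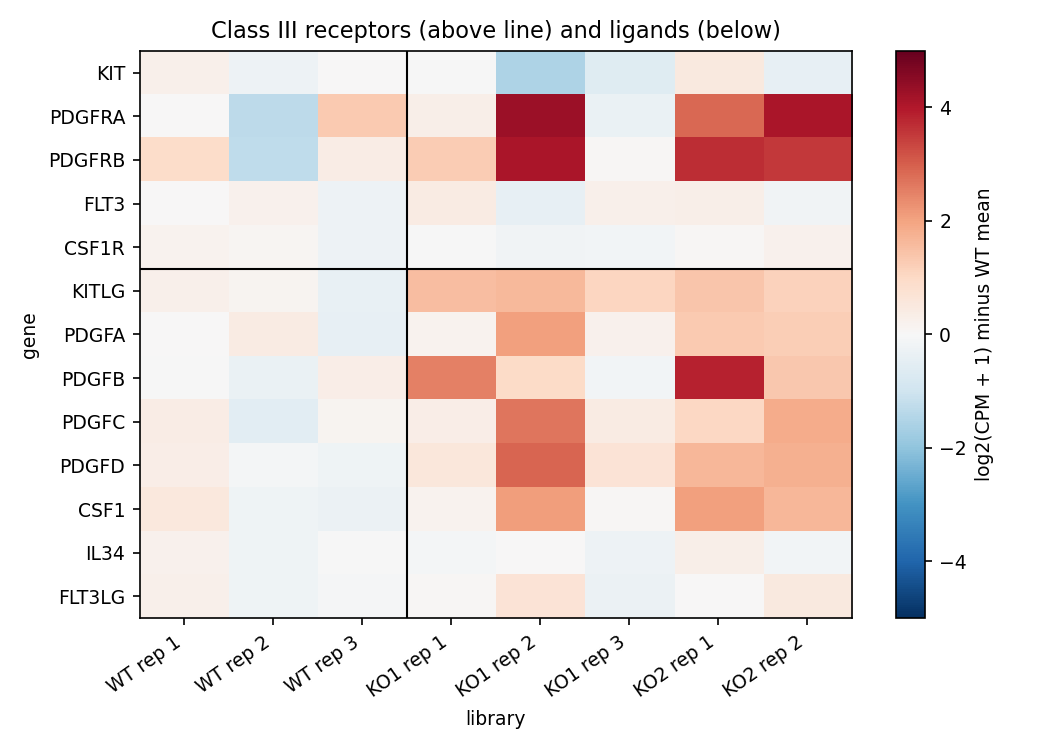
Heat map of log2(CPM + 1) minus the WT mean for the class III receptors (rows above the line) and their ligands (rows below), with 1 column per library. KITLG, chosen with this comparison known, is above the WT mean in all 5 KO columns, as are PDGFA, PDGFC, PDGFD and CSF1. PDGFRA, PDGFRB and CSF1 are highest in KO1 replicate 2 and the KO2 libraries.

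The adaptors and kinases that KIT uses showed little common direction, with 20 of 42 tested genes higher and 22 lower (median -0.02). Of all genes, 49.4% were higher. DESeq2 called 3 of the 42, 2 higher and 1 lower, against 4.83% and 1.16% of all genes. SHC1, an adaptor to RAS, was at 34.9, 20.7 and 37.1 CPM in WT, 76.4, 262.8 and 23.6 CPM in KO1, and 288.5 and 166.7 CPM in KO2 (adjusted p = 0.0144). STAT3, a transcription factor downstream of several receptors, averaged 73.7 ± 10.2 CPM over the WT libraries (SD, n = 3) and 219.2 ± 113.4 CPM over the KO libraries (SD, n = 5), with KO1 replicate 3, at 79.3 CPM, inside the WT range (DESeq2 adjusted p = 0.0265). PIK3R2, a regulatory subunit of PI3-kinase, was at 172.7, 181.1 and 146.2 CPM in WT, 121.8, 121.6 and 119.9 CPM in KO1, and 106.4 and 126.7 CPM in KO2 (adjusted p = 0.0121). PIK3R2 was below WT in every KO library. Without the high-collagen libraries DESeq2 called none of the 3, with adjusted p of 0.776 for SHC1, 0.652 for STAT3 and 0.151 for PIK3R2. The largest fold changes were in FES and MATK, tyrosine kinases of blood and neural cells, with WT means of 0.238 and 0.563 CPM and KO means of 1.81 and 3.8 CPM, which were not called.

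Among the feedback genes of RAS and ERK signalling, DESeq2 called 1 gene over all libraries and 2 without the high-collagen libraries. The shares of all genes that it called higher were 4.83% and 0.877%. SPRY1, a sprouty inhibitor, was at 15.2, 23.1 and 11.6 CPM in WT, 108.8, 24.5 and 52.3 CPM in KO1, and 55.8 and 32.6 CPM in KO2. All KO libraries lay above WT, with KO1 replicate 2 just above it. DESeq2 called SPRY1 higher (adjusted p = 0.0153, and 5.51e-06 without the high-collagen libraries). SPRY2, a relative of SPRY1, was at 15.3, 21.5 and 17.4 CPM in WT, 82.9, 17.2 and 27.9 CPM in KO1, and 89.1 and 22.6 CPM in KO2, and was called without the high-collagen libraries (adjusted p = 0.0155) but not with them (0.131). SPRY4 had means of 9.58 ± 6.23 and 31.4 ± 18.3 CPM in WT and KO and was not called. Of the 19 tested genes of feedback and degradation, 14 were higher and 5 lower, with a median of 0.37 (0.23 without the high-collagen libraries). The share of all genes that were higher was 49.4%.

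The shedding list holds proteases that can release KIT ligand or KIT, with their modulators. Of 7 tested genes 6 were higher in KO, against 49.4% of all genes. The list median was 1.30, and 0.17 without the high-collagen libraries. DESeq2 called 4.83% of all genes higher, and 0.877% without those libraries. TIMP3, an inhibitor of ADAM17 and of other metalloproteases, was the 1 gene called: it was at 30.6, 10.9 and 18.0 CPM in WT, 42.6, 773.8 and 33.1 CPM in KO1, and 314.5 and 404.7 CPM in KO2 (DESeq2 adjusted p = 0.000941, and 0.362 without the high-collagen libraries). ADAM33, which can cleave KIT ligand, averaged 5.59 ± 7.42 CPM over the WT libraries (SD, n = 3) and 22.9 ± 21.4 CPM over the KO libraries (SD, n = 5) and was not called.

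Of 11 tested transcription factors known to act at KIT or KITLG, 4 were higher and 7 lower (median -0.04, and 0.25 without the high-collagen libraries). Among all genes 49.4% were higher. RUNX1, a regulator of blood formation, was at 0.608, 0.274 and 0.215 CPM in WT, 5.20, 29.6 and 1.09 CPM in KO1, and 14.7 and 17.2 CPM in KO2. GATA2, a regulator of blood progenitors and mast cells, was at 0.284, 0.823 and 1.13 CPM in WT, 2.48, 47.0 and 1.62 CPM in KO1, and 48.2 and 24.9 CPM in KO2. Both lay above WT in all KO libraries and were highest in the high-collagen libraries. DESeq2 called both higher (adjusted p = 2.10e-06 and 0.000112), and without the high-collagen libraries RUNX1 (0.0251) but not GATA2 (0.493). It called 4.83% of all genes higher, and 0.877% without those libraries.

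Over the 8 libraries, the RNA most like KITLG was that of UBB, a ubiquitin gene whose count is uncertain (Pearson's r of log2 CPM 0.983), SLIT2, a secreted axon guidance protein (0.982), LINC02575 (0.978), RAB6C-AS1 (0.976) and BBOF1 (0.975), out of 16264 genes with a mean of at least 1 CPM. SLIT2 was at 193.2, 168.1 and 124.8 CPM in WT, 529.9, 590.1 and 302.4 CPM in KO1, and 370.5 and 398.2 CPM in KO2. The RNA most like KIT was that of ARMH1 (0.980), RBM38 (0.966), RFX4, a transcription factor of neural progenitors (0.959), PLEKHA7 (0.959) and B3GALT4 (0.957). RFX4 was at 61.0, 45.7 and 57.3 CPM in WT, 39.1, 7.58 and 38.1 CPM in KO1, and 98.8 and 27 CPM in KO2. Its lowest and highest values were in the same libraries as those of KIT, which its choice by likeness to KIT favours. These correlations are descriptions over libraries that share their scaling.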

How the data were processed

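PolyA RNA was measured in 8 libraries and ChIP in 9 samples, 3 per line: H3K27me3, H3K36me3 and a control. The submitters' processing notes name Salmon 1.1.0, DESeq2 1.26.0, Bowtie2 2.4.1 and GRCh38. Estimated counts, not normalized, were deposited by gene symbol in 1 RNA table. The authors' deposited comparison table gives a baseMean signal, log2 fold changes with SE, a Wald score and p-values, raw and adjusted. The peak lists, per the file headers, come from MACS2 2.2.7.1 in narrow mode at q 0.01, and hold a pileup signal, a fold ratio over control and −log10 q. The labels do not say whether the KO lists merge both lines.

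Counts were rounded and fitted over all genes with edgeR 4.0.16 (filterByExpr, TMM, quasi-likelihood test, Benjamini-Hochberg FDR under 0.05), with both KO lines pooled against WT, or as 3 groups for KO2 against KO1. DESeq2 1.42.0 (genotype only) was the alternative. CPM are TMM-scaled, with SD across libraries. Scripts were tested on simulated data. Depth was 17.4 M to 31.5 M estimated counts per library, so genes with few counts are measured less precisely. Members, lists and tests were chosen with earlier results of these data known. A peak was assigned at an overlap of 1 bp with the gene span and 2 kb on each side. Start sites came from the RefSeq promoter table, and 2878 tested genes had no position.

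Named genes were the pair, their class III relatives, in other pathway lists the genes called by either tool and the 2 largest fold changes, in marker lists the 2 with the highest mean, the 5 most like each member, and the 3 nearest tested genes on each side. SPRY2 was added after its values were seen. Leaving out the high-collagen libraries (COL1A1 above 1000 CPM) and DESeq2 with each library left out were also chosen after seeing the data.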

Additional observations from a re-analysis of the deposited data

How the results depend on the processing

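Over 58 alternative values of the 4 comparisons of KITLG and KIT, each kept its direction and stayed within the spread between replicates or on the same side of the threshold. Both limits were wide. The spread between replicates is large for KIT, with an SD of 50.4% of its KO mean. Between the KO lines edgeR called 0 of 19440 genes, so staying on the same side of the threshold was nearly fixed in advance. With each library left out, KITLG in KO against WT ranged from 1.20 to 1.5 (log2) and KIT from -0.57 to -0.08. KO2 against KO1 ranged from -0.32 to -0.04 for KITLG (edgeR FDR 0.942 to 1.00) and from 0.24 to 1.17 for KIT (FDR 0.494 to 1.00). edgeR called 0 pathway genes under each of its settings, leave-outs included. DESeq2 called 10, 4 to 23 with each library left out (4 without WT replicate 1, 5 without WT replicate 2 or 3, 20 without KO1 replicate 1, 23 without KO1 replicate 3), and 3 without the high-collagen libraries. Of all genes it called 4.83% higher and 1.16% lower, and 0.877% and 0.55% without the high-collagen libraries. The shares of all genes with each library left out are not given, so those counts show no change particular to the pathway. At a -log10 q of at least 5, or a fold of at least 4, the WT list kept 2 of the 4 H3K27me3 peaks at KIT, and the KO list kept its 1 peak under each of these settings.

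With the replicate number as a block, KITLG was 1.33 and KIT -0.40 in KO against WT, and edgeR called 0 pathway genes. KO2 against KO1 was then -0.33 for KITLG and 0.83 for KIT. The unadjusted p of edgeR's quasi-likelihood test was 0.0878 for KITLG and 0.0324 for KIT, with an FDR of 0.9998 for both. Whether the numbers pair the libraries could not be decided. Deviations of same-numbered libraries correlated between -0.321 and 0.267 over 7 pairs, and 2 pairs exceeded 0.1. Both were pairs of KO1 with KO2 (0.267 and 0.164). The deviations of the 2 KO2 libraries from their mean mirror each other, so the swapped pairs had the same values with the opposite sign. Differently numbered libraries correlated between -0.267 and 0.339, with the highest value for WT replicate 2 and KO1 replicate 3.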

Other observations

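Cell types in which KIT is well known were looked for by their markers, and the part of such cells in the KIT values was not tested. Of 8 mast cell markers, 3 (MS4A2, FCER1A and SIGLEC6) were at 0 in every library. The list summed to 0.804 to 2.13 CPM in WT, 3.17 to 5.71 CPM in KO1 replicates 1 and 3, and 0.393 to 0.892 CPM in the high-collagen libraries, most of it HDC, the histamine-forming enzyme, and next TPSB2, a tryptase. The 9 melanocyte markers summed to 25.2 to 56.8, 42.1 to 48.3 and 22.8 to 43.7 CPM in the same order, led by DCT, an enzyme of melanin synthesis, and PAX3, a factor of the dorsal neural tube and neural crest. The 8 germ cell markers summed to 47.1 to 52.6, 17.7 to 51.6 and 5.29 to 21.7 CPM, with SOX17 and DPPA3 at 0 in every library. Their level was mostly that of TFAP2C (47.3 ± 3.07 CPM in WT, SD, n = 3; 18.3 ± 18.8 CPM in KO, SD, n = 5), and NANOS3 was second. The 8 blood progenitor markers summed to 5.18 to 10.7, 4.76 to 8.14 and 10.9 to 27.2 CPM, led by ITGA2B, a platelet integrin, and CD34, which endothelial cells also make (0.278 ± 0.318 CPM in WT, SD, n = 3; 8.13 ± 9.51 CPM in KO, SD, n = 5). DESeq2 called 2 of 3 tested blood progenitor markers higher, CD34 (adjusted p = 0.00186) and PTPRC (0.0312), and 1 of 8 tested melanocyte markers, TYR (0.0402). It called 0 of 1 tested mast cell marker and 0 of 3 germ cell markers, and 4.83% of all genes higher. Without the high-collagen libraries it called none of CD34, PTPRC and TYR (0.897, 0.596 and 0.588). edgeR called 0 members of these 4 lists over all libraries, as it called 0 of all 18614 genes (0%). At an unadjusted edgeR p under 0.05, 2 blood progenitor and 1 melanocyte markers were higher and 1 blood progenitor marker was lower. Of all genes, 11.5% were higher and 6.45% lower at this p. PTPRC and TYR are named here because they were called.

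The 6 astrocyte and radial glia markers, led by SLC1A3 and GFAP, summed to 146.5 to 301.0, 114.9 to 211.0 and 67.1 to 438.9 CPM in WT, KO1 replicates 1 and 3, and the high-collagen libraries. KO2 replicate 1, the library with the most KIT RNA (32.3 CPM), had the highest value of SLC1A3, 380.3 CPM, and of GFAP, 41.7 CPM. In WT the order was the opposite. The list summed to 146.5, 301.0 and 202.8 CPM in WT replicates 1 to 3, where KIT was at 27.1, 18.4 and 22.5 CPM. The part of such cells in the KIT values was not tested. These values were singled out after they were seen.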
